A study of Salmo salar with 16 samples.

Results

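Brain and pituitary of Atlantic salmon were compared as a pair with ovary and liver as a pair, to find the genes that both neuroendocrine tissues carried at a higher, or at a lower, level than both peripheral tissues. A gene was counted only if brain against ovary, brain against liver, pituitary against ovary and pituitary against liver all passed an adjusted p of at most 0.001 and at least a 4-fold change (log2 of 2) in the same direction. Of 81574 genes in the count table, 37043 had enough counts to be tested, and 3259 met the rule. Brain and pituitary stood higher for 2750 genes (7.42% of the genes tested) and lower for 509 (1.37%).

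Neurons and endocrine cells both store signal molecules in membrane vesicles, carry voltage-gated channels, and release the vesicles when calcium enters the cell. Peptide hormones and neuropeptides are made as larger precursors, sorted with granin proteins into dense-core granules, and cut by prohormone convertases. The fish liver makes plasma proteins and, in females, yolk and egg coat proteins that the ovary takes up, and the ovary holds germ cells with stored maternal mRNA.

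The series held 4 libraries each of mid brain, pituitary, ovary and liver. Per the study's methods the tissues came from 4 sexually immature females, 3 years of age of a farmed stock of North American origin, and the labels name no treatment. Messenger RNA was sequenced from stranded libraries. The labels number the libraries 1 to 4 within each tissue but do not tie a number to a fish.

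Total counts per library ran from 20638203 to 51858156. Each tissue was checked against its defining genes, given as summed CPM (counts per 1e6 of a library's counts, scaled by edgeR's TMM factors). Pituitary hormones summed to between 380989 and 459647 CPM in pituitary, and to between 228 and 749 CPM in the libraries of the other tissues. Neurofilaments summed to between 530.3 and 4501 CPM in brain, against 17.1 to 21.1 CPM in pituitary, and myelin genes to between 2741 and 32824 CPM in brain, against 124 to 185 CPM in pituitary. Liver plasma proteins summed to 299283 CPM or more in liver and to 6258 CPM or less elsewhere. Egg coat proteins were at 3642 to 4488 CPM in ovary and at 22020.0 to 24960.3 CPM in liver, against 9.10 to 30.9 CPM in the brain and pituitary libraries. The brain libraries differed most among themselves: the 10 most abundant genes took 23.4% and 17.7% of the counts in replicates 3 and 4, against 6.62% and 3.95% in replicates 1 and 2. Without brain replicates 3 and 4 the rule gave 2913 higher and 559 lower genes, and without replicates 1 and 2 it gave 2941 and 453.

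The 2750 higher genes took 8.18% to 14.96% of the counts of a brain library and 6.61% to 7.61% of those of a pituitary library, against 0.356% to 0.381% in ovary and 0.124% to 0.132% in liver. Brain replicates 3 and 4 had the lowest shares of the brain group, at 8.18% and 10.3%. The 509 lower genes took 0.150% to 0.192% of the counts in brain and 0.129% to 0.147% in pituitary, against 2.63% to 2.69% in ovary and 3.41% to 3.68% in liver. In bulk tissue, fewer cells of a type and less RNA per cell cannot be told apart.

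The size of a gene is given below as its smallest log2 fold change over the 4 pairs of tissues. Among the higher genes this size had a median of 3.86, or 14.6-fold, and ran from 2.001 to 9.16. Among the lower genes the median was −2.95, or 7.74-fold. For 254 higher genes and 27 lower genes at least 1 tissue of the low side had no count in any library, so their fitted folds depend on the prior count and are no bounds. With such pairs set to the floor of 3 counts over the 4 libraries of a tissue, the medians were 3.71 and −2.92. For 678 higher and 67 lower genes at least 1 tissue of the low side had only 1 to 3 counts over its 4 libraries. Those pairs kept their fitted folds, so these medians are no bounds either. Just inside and just outside the rule stood LOC106605297 at 2.001 and LOC106589666 at 1.997 for higher genes, and LOC106604182 at −2.006 and LOC106568524 at −1.9998 for lower genes. A further 1075 genes were at least 4-fold higher in all 4 pairs and 205 at least 4-fold lower without passing the adjusted p in all of them.

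Each pair of tissues alone gave many more calls. Brain against ovary called 27.6% of the tested genes higher and 19.0% lower, and brain against liver 22.1% and 10.8%. Pituitary against ovary called 22.3% higher and 18.9% lower, and pituitary against liver 17.3% and 10.9%. The mean of brain and pituitary against the mean of ovary and liver called 21.2% higher and 9.72% lower. All 8 libraries of brain and pituitary lay above all 8 of ovary and liver for 2730 of the 2750 higher genes, where the share over all tested genes was 14.3%, and below them for 500 of the 509 lower genes, where it was 8.09%. The rule used these same values, so the last counts describe the genes and test nothing.

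Of the higher genes 2603 were annotated as protein-coding, 96 as long non-coding RNA and 48 as pseudogenes, and of the lower genes 474, 25 and 9. A trait that the rule did not use was the length of the gene on the chromosome. Protein-coding genes that were higher spanned a median of 25.5 kb on the ICSASG_v2 assembly, and 15.5% of them spanned at least 100 kb. Protein-coding genes that were lower spanned a median of 11.02 kb, with 1.48% at 100 kb or more. Over all 34387 protein-coding genes tested these values were 13.3 kb and 5.89%. Summed exon length had a median of 3537 bases in the higher genes and 2434 bases in the lower ones, against 2739 bases over all. Longer transcripts collect more counts at the same level, and the part of this in the calls was not tested. Genes overlapping another gene on the opposite strand made up 4.99% of the higher and 6.54% of the lower protein-coding genes, against 6.28% over all. The strand setting of the authors' counting is not given in the sources used here, so counts of such overlapping genes are less certain. Across the 29 chromosomes the share of tested genes that were higher ran from 1.86% to 9.11%, with a median of 7.35%. Salmon genes often come as pairs left by a whole-genome duplication. Genes were matched here by product name alone and were not checked to be such duplicates. Among 4304 product names carried by exactly 2 tested genes, 446 had at least 1 higher gene, and 121 of these (27.1%) had both. At least 1 lower gene was held by 109 names, of which 16 (14.7%) had both, and 1 name had a gene on each side. Over all genes tested 7.42% were higher and 1.37% lower. These are shares of single genes, while 27.1% and 14.7% are shares of names that already had at least 1 such gene, so the measures are unlike.

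Secretogranin-2, a granin stored in dense-core granules and cut into peptides, was among the 12 higher genes of largest size with a characterized product. The gene scg2 (chromosome 3, 42575836–42580521 on ICSASG_v2) had 74.5, 91.3, 41 and 66.8 CPM in the brain libraries and 63.3, 77.7, 57.9 and 76.4 CPM in the pituitary libraries, against 0.324, 0.19, 0.372 and 0.197 CPM in ovary and 0.184, 0.173, 0.181 and 0.167 CPM in liver. The difference between brain and pituitary missed the threshold (log2 -0.01 ± 0.20, SE, adjusted p = 0.98, edgeR), and no library of one side came near the other side. Its size was 7.97 (largest adjusted p of the 4 edgeR tests 8.1e-12). A like-named gene, LOC106569633 (chromosome 14, 42157999–42160981), had 175, 115, 98 and 169.9 CPM in brain and 501, 409.7, 329 and 492 CPM in pituitary, against 0.67, 0.761, 1.09 and 0.59 CPM in ovary and 0.551, 0.345, 0.998 and 0.585 CPM in liver. Here the pituitary libraries all stood above the brain libraries.

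**Figure D1:**
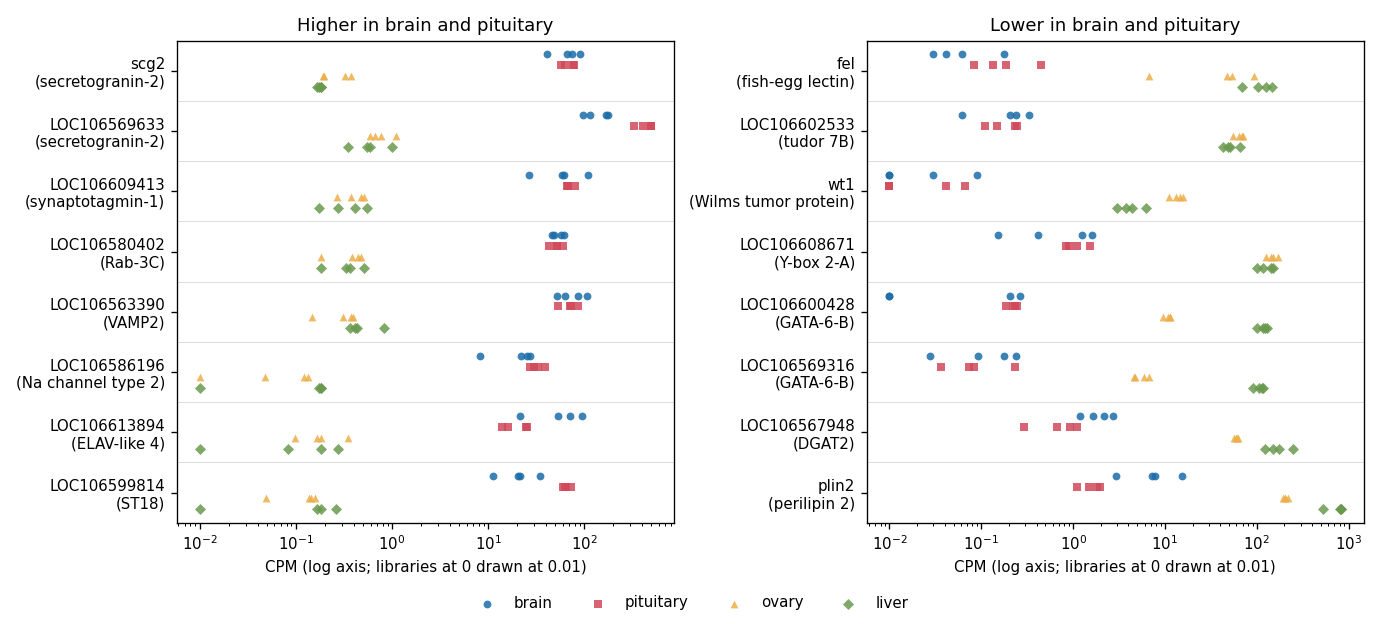
CPM per library on a log axis for 8 genes higher (left) and 8 genes lower (right) in brain and pituitary, 4 libraries per tissue, with libraries at 0 drawn at 0.01. Brain and pituitary libraries lie on 1 side of each row and ovary and liver libraries on the other. For wt1, plin2, LOC106567948, both GATA-6-B rows and, narrowly, scg2, ovary and liver also lie apart from each other. Brain and pituitary lie apart from each other in some rows, among them LOC106569633, LOC106599814 and plin2.

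The list of prohormone processing genes and granins had the largest share of higher genes: 16 of its 21 tested genes were higher (76.2%, against 7.42% over all tested genes) and none was lower. The median of its contrast of means was 6.31 on the log2 scale, against 0.09 over all genes tested. Besides 3 secretogranin-2 genes the 16 held chga (chromogranin A), scg5 and 7b2, whose product assists prohormone convertase 2, and genes for convertases 1 and 2, which cut the precursors. Chromogranin A averaged 79.4 ± 19.9 CPM in brain and 322 ± 20.8 CPM in pituitary, against 17.4 ± 2.79 CPM in ovary and 0.798 ± 0.334 CPM in liver (SD, n = 4 each), so ovary was its nearest tissue (size 2.19). The gene scg5 averaged 82.6 ± 22.9 CPM in brain and 1000.2 ± 171 CPM in pituitary, against 2.22 ± 0.503 CPM in ovary and 1.14 ± 0.571 CPM in liver. Convertase 1 came as 2 genes that differed inside the higher side. LOC106565194 averaged 21.6 ± 11.1 CPM in brain and 61.7 ± 22.9 CPM in pituitary, while LOC106583415 averaged 10.6 ± 6.3 CPM in brain and 0.806 ± 0.461 CPM in pituitary, and the means of both stayed at or below 0.69 CPM in ovary and liver. Within this list 8 of the 16 higher genes were also at least 4-fold higher in pituitary than in brain, and 2 were at least 4-fold higher in brain, against 5.05% and 14.6% of all 2750 higher genes (4.91% and 10.7% of all genes tested).

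The convertase 2 gene pcsk2 had the highest level of all higher genes when counts were set against exon length, at 1418 FPKM (CPM divided by the summed exon length in kilobases) over the 8 brain and pituitary libraries. Brain had 77.6, 112, 56.3 and 162 CPM and pituitary 8634, 7220.2, 5879 and 10935 CPM, against 11.6, 8.15, 10.4 and 9.46 CPM in ovary and 17.3, 1.21, 6.26 and 13.5 CPM in liver. Ovary and liver stood at 0.121% and 0.117% of the pituitary mean, close to the share at which the summed pituitary hormones stood there (0.131% and 0.159%), and brain at 1.25%. The part of such a common low share in the ovary and liver values was not tested. In scg3, another granin, pituitary averaged 3779 ± 1031 CPM and brain 39.4 ± 12.3 CPM, against 7.51 ± 3.72 CPM in ovary and 13.4 ± 7.5 CPM in liver, and brain against liver did not pass (size 1.56, largest adjusted p 0.0031). A secretogranin-3-like gene of the same list did meet the rule (size 2.16).

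Genes of the vesicle release machinery gave 65 higher genes of 156 tested (41.7%, against 7.42% over all genes tested) and none lower. Their median contrast of means was 4.90. Synaptotagmins bind calcium at the vesicle, and VAMP2 is the vesicle protein that docks with the cell membrane. The synaptotagmin-1-like gene LOC106609413 had 58.2, 26.6, 61.5 and 110.1 CPM in brain and 67.2, 68.7, 66.2 and 79.5 CPM in pituitary, against 0.508, 0.475, 0.372 and 0.27 CPM in ovary and 0.551, 0.173, 0.272 and 0.418 CPM in liver. The VAMP2-like gene LOC106563390 had 85.7, 62.6, 52.8 and 108 CPM in brain and 71.9, 72.5, 53.5 and 86.3 CPM in pituitary, against 0.393, 0.309, 0.372 and 0.147 CPM in ovary and 0.827, 0.431, 0.363 and 0.418 CPM in liver. The Rab-3C-like gene LOC106580402, for a small GTPase of secretory vesicles, had 61.7, 56.8, 45.8 and 49.1 CPM in brain and 52.5, 60.5, 43.2 and 52.5 CPM in pituitary, against 0.185, 0.38, 0.478 and 0.442 CPM in ovary and 0.184, 0.518, 0.363 and 0.334 CPM in liver. For these 3 genes brain against pituitary missed the threshold (adjusted p = 0.72, 0.68 and 0.9, edgeR), and their sizes were 7.28, 7.12 and 7.13. A second Rab-3C-like gene, LOC106585027, was also higher but averaged 26.7 ± 6.21 CPM in brain and 0.827 ± 0.246 CPM in pituitary (size 2.03).

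Of the 65 higher genes of the release machinery 25 were at least 4-fold higher in brain than in pituitary and 1 was at least 4-fold higher in pituitary, against 14.6% and 5.05% of all higher genes. Complexin-1, which clamps the fusion machinery, is an example chosen after its values were seen: cplx1 averaged 275 ± 101 CPM in brain and 30.4 ± 2.01 CPM in pituitary, against 0.735 ± 0.182 CPM in ovary and 0.845 ± 0.425 CPM in liver. The tested gene of the list with the highest level that did not meet the rule was sn25a, for SNAP-25, a membrane partner of VAMP2. It had 2366, 3320.2, 1137 and 943 CPM in brain and 12.1, 11.6, 14.1 and 13 CPM in pituitary, against 3.61, 2.99, 4.6 and 2.63 CPM in ovary and 7.81, 5.26, 7.98 and 3.68 CPM in liver. All pituitary libraries lay above all ovary and liver libraries, but pituitary was 1.04 ± 0.36 log2 units above liver (SE, adjusted p = 0.019, edgeR).

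Ion channels that fire and shape action potentials were higher in part. Sodium channel genes gave 10 higher of 22 tested (45.5%, median contrast 4.94), calcium channel genes 26 of 78 (33.3%, median 4.03) and potassium channel genes 13 of 91 (14.3%, median 3.67), with none lower in any of the 3 lists. The share of higher genes over all genes tested was 7.42%. The sodium channel alpha subunit gene LOC106586196 (type 2-like) had 22.2, 8.28, 27.4 and 25.4 CPM in brain and 27.5, 30.3, 33.1 and 39.2 CPM in pituitary, against 0, 0.0475, 0.133 and 0.123 CPM in ovary and 0.184, 0.173, 0.181 and 0 CPM in liver (size 7.25). All 8 brain and pituitary libraries were far above the other 8. The L-type calcium channel beta-1 subunit gene LOC106607229 was more uneven: brain had 8.96, 2.1, 5.58 and 44.6 CPM and pituitary 22.1, 25.3, 21.5 and 26 CPM, against 0.208, 0.119, 0.106 and 0.0983 CPM in ovary and 0, 0.0863, 0.181 and 0.251 CPM in liver. A potassium channel gene of subfamily A, LOC106566038, averaged 7.64 ± 5.74 CPM in brain and 26.8 ± 2.43 CPM in pituitary, against 0.0551 ± 0.0623 CPM in ovary and 0.0651 ± 0.0435 CPM in liver.

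Not every channel gene followed the tissue pair. The calcium channel list's most abundant gene outside the rule, an N-type subunit gene (LOC106567450), averaged 16.6 ± 15.8 CPM in brain and 38.5 ± 1.61 CPM in pituitary, against 1.93 ± 0.328 CPM in ovary and 148 ± 28.9 CPM in liver. Its potassium channel counterpart of subfamily C, LOC106583079, averaged 2.92 ± 3.04 CPM in brain and 0.151 ± 0.0918 CPM in pituitary, against 1.94 ± 0.305 CPM in ovary and 256 ± 30.1 CPM in liver. In both, liver was the highest tissue. A type 4-like sodium channel gene, LOC106600868, averaged 161 ± 94.3 CPM in brain and 8.34 ± 2.96 CPM in pituitary, against 2.81 ± 0.778 CPM in ovary and 1.16 ± 0.558 CPM in liver, and pituitary against ovary kept it out of the rule (size 1.57).

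Receptors that open on glutamate, GABA or glycine gave 29 higher genes of 113 tested (25.7%, against 7.42% over all genes tested) and none lower. Their median contrast was 4.08. At least 4-fold higher in brain than in pituitary were 10 of the 29, and none was so in pituitary. Of all 2750 higher genes these shares were 14.6% and 5.05%, and of all genes tested 10.7% and 4.91%. The kainate receptor gene LOC106583195 had 33.9, 25.3, 43.5 and 40.7 CPM in brain and 22.5, 23.7, 22.6 and 23.2 CPM in pituitary, against 0.0693, 0.143, 0.106 and 0.0737 CPM in ovary and 0.276, 0.0863, 0.363 and 0.0836 CPM in liver (size 6.83). The pituitary libraries of this gene were close to each other and all below the brain libraries. Glycine receptor alpha 1, glra1, averaged 24.8 ± 17.4 CPM in brain and 3.19 ± 0.539 CPM in pituitary, against 0.0175 ± 0.0222 CPM in ovary and 0.0216 ± 0.0431 CPM in liver. A fish glutamate receptor gene, U1-like LOC106582807, averaged 420.2 ± 819 CPM in brain and 1.45 ± 0.426 CPM in pituitary, against 1.48 ± 0.704 CPM in ovary and 1.92 ± 2.02 CPM in liver, and did not meet the rule. Its brain level came mostly from replicate 2.

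Adhesion molecules of neurons, which join the 2 sides of a synapse, gave 57 higher genes of 106 (53.8%, against 7.42% over all genes tested). None was lower, and the median contrast was 4.78. The neuroligin-4-like gene LOC106574268 averaged 12.2 ± 5.03 CPM in brain and 12.1 ± 1.14 CPM in pituitary, against 0.0667 ± 0.0208 CPM in ovary and 0.0881 ± 0.00388 CPM in liver (size 7.04). A leucine-rich repeat transmembrane neuronal gene of this list, LOC106604128, had 13.8, 9, 7.86 and 18.2 CPM in brain and 6.3, 7.01, 4 and 6.5 CPM in pituitary, against 0.0693, 0, 0.0266 and 0 CPM in ovary and 0.0919, 0, 0 and 0 CPM in liver. Contactin-1a-like LOC106561641, the most abundant adhesion gene outside the rule, averaged 252 ± 160.0 CPM in brain and 35.4 ± 9.57 CPM in pituitary, against 1.12 ± 0.114 CPM in ovary and 248 ± 53.6 CPM in liver, and brain against liver missed the threshold (log2 0.02 ± 0.37, SE, adjusted p = 0.96, edgeR).

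Growth cone and microtubule proteins, which build and supply axons, gave 28 higher genes of 56 (50.0%, against 7.42% over all genes tested). Their median contrast was 4.75. At least 4-fold higher in brain than in pituitary were 12 of the 28, and none was so in pituitary. Of all 2750 higher genes these shares were 14.6% and 5.05%, and of all genes tested 10.7% and 4.91%. Stathmin-2-like LOC106588819, a tubulin-binding protein of growing axons, had 501, 491, 318 and 227 CPM in brain and 119, 162, 168 and 116 CPM in pituitary, against 1.29, 0.832, 1.36 and 1.13 CPM in ovary and 3.4, 3.02, 3.54 and 2.01 CPM in liver. A second, stathmin-like gene, LOC106588646, averaged 343 ± 124 CPM in brain and 245 ± 29.4 CPM in pituitary, against 303 ± 31.2 CPM in ovary and 6.68 ± 1.75 CPM in liver, so ovary kept it out of the rule. None of the 14 tested neurofilament genes, none of the 8 myelin genes and none of the 15 pituitary hormone genes met the rule, the hormones being high in pituitary and the other 2 lists in brain.

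RNA-binding proteins of neurons, which set neural splicing and mRNA stability, gave 14 higher genes of 31 (45.2%, against 7.42% over all genes tested). Their median contrast was 4.73. ELAV-like protein 4, LOC106613894, had 95.1, 70.6, 53.7 and 21.6 CPM in brain and 25.7, 16.2, 14 and 24.8 CPM in pituitary, against 0.185, 0.166, 0.346 and 0.0983 CPM in ovary and 0.276, 0, 0.181 and 0.0836 CPM in liver (size 6.65). Brain replicate 4 was the lowest of its group and lay within the range of the pituitary libraries. An RNA binding fox-1 homolog 2-like gene, LOC106601175, was the list's most abundant exception, with 43.6 ± 8.17 CPM in brain and 12.9 ± 1.71 CPM in pituitary, against 22.8 ± 1.81 CPM in ovary and 87.9 ± 22.8 CPM in liver.

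Transcription factors of neural and endocrine cells gave 18 higher genes of 89 tested (20.2%, against 7.42% over all genes tested) and none lower. Their median contrast was 4.90. The zinc finger factor ST18, LOC106599814, had 34.7, 21.4, 20.3 and 11.4 CPM in brain and 65.1, 62.8, 60.7 and 72.3 CPM in pituitary, against 0.139, 0.143, 0.159 and 0.0491 CPM in ovary and 0, 0.259, 0.181 and 0.167 CPM in liver (size 7.12). Its relative myelin transcription factor 1-like, LOC106572819, averaged 13 ± 13.5 CPM in brain and 17.7 ± 0.723 CPM in pituitary, against 0.0504 ± 0.0435 CPM in ovary and 0.133 ± 0.118 CPM in liver. Insulinoma-associated protein 1, a repressor of endocrine and neural precursors named here after its values were seen, came as 3 higher genes, each at least 4-fold higher in pituitary than in brain: insm1 averaged 17.9 ± 18.6 CPM in brain and 168 ± 17.8 CPM in pituitary, against 0.224 ± 0.0465 CPM in ovary and 0.29 ± 0.23 CPM in liver. LOC106607681 averaged 16.2 ± 13 CPM in brain and 192 ± 19.1 CPM in pituitary, against 0.248 ± 0.0963 CPM in ovary and 0.514 ± 0.406 CPM in liver. The third, LOC106578112, averaged 7.5 ± 8.15 CPM in brain and 94.3 ± 20.5 CPM in pituitary, against 0.192 ± 0.112 CPM in ovary and 0.198 ± 0.0414 CPM in liver.

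Neurogenic differentiation factor 1, ndf1, which drives neuronal and endocrine cell fates, narrowly missed the rule. Brain had 4.46, 171, 1.83 and 0.731 CPM and pituitary 134, 148, 159 and 117 CPM, against 0.462, 0.356, 0.425 and 0.27 CPM in ovary and 0.368, 0.604, 0.635 and 0.0836 CPM in liver. All 8 brain and pituitary libraries lay above the other 8 and its size was 6.73, but brain replicate 2 was far above the other brain libraries and brain against liver missed the threshold (adjusted p = 0.0012, edgeR). With brain replicate 1, 3 or 4 left out, the gene met the rule, but with replicate 2 left out it did not. RE1-silencing transcription factor, a repressor of neuronal genes outside the nervous system, went the other way: LOC106604639 had 6, 6.22, 8.6 and 5.3 CPM in brain and 4.31, 4.33, 4.8 and 5.18 CPM in pituitary, against 21.3, 12.8, 13.8 and 17.1 CPM in ovary and 44.5, 54.2, 49 and 49.2 CPM in liver. Its 8 brain and pituitary libraries lay below the other 8, but brain against ovary was -1.31 ± 0.17 on the log2 scale and under the 4-fold limit, so it is not among the 509 lower genes. Both genes were named after their values were seen.

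G protein and RGS genes, which relay signals from receptors, gave 24 higher genes of 132 (18.2%, against 7.42% over all genes tested). A further 1 was lower (0.758%, against 1.37%), and the median contrast was 1.78. The G(o) alpha subunit gene LOC106587424 had 42.6, 51.6, 26.4 and 56.5 CPM in brain and 32.6, 34.4, 25.5 and 35.6 CPM in pituitary, against 0.0924, 0.119, 0.0797 and 0.197 CPM in ovary and 0.368, 0.173, 0.453 and 0.334 CPM in liver. Another G(o) alpha-like gene, LOC106591866, was the lower one, at 0.761 ± 0.528 CPM in brain and 0.47 ± 0.158 CPM in pituitary, against 16.6 ± 1.2 CPM in ovary and 3.54 ± 1.22 CPM in liver (size -2.24). It lost the call in 6 of 28 alternative settings, among them the fits without brain replicate 1, brain replicate 2 or liver replicate 2, where its size lay between −2.08 and −1.94. Subunits of the V-type proton ATPase, which acidifies vesicles in all cells, gave 5 higher genes of 45 (11.1%, against 7.42% over all genes tested). Their median contrast was 1.29. The most abundant of the genes outside the rule, LOC106579190, averaged 261 ± 47.8 CPM in brain and 122 ± 10.7 CPM in pituitary, against 76 ± 4.51 CPM in ovary and 83.2 ± 1.6 CPM in liver.

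**Figure D2:**
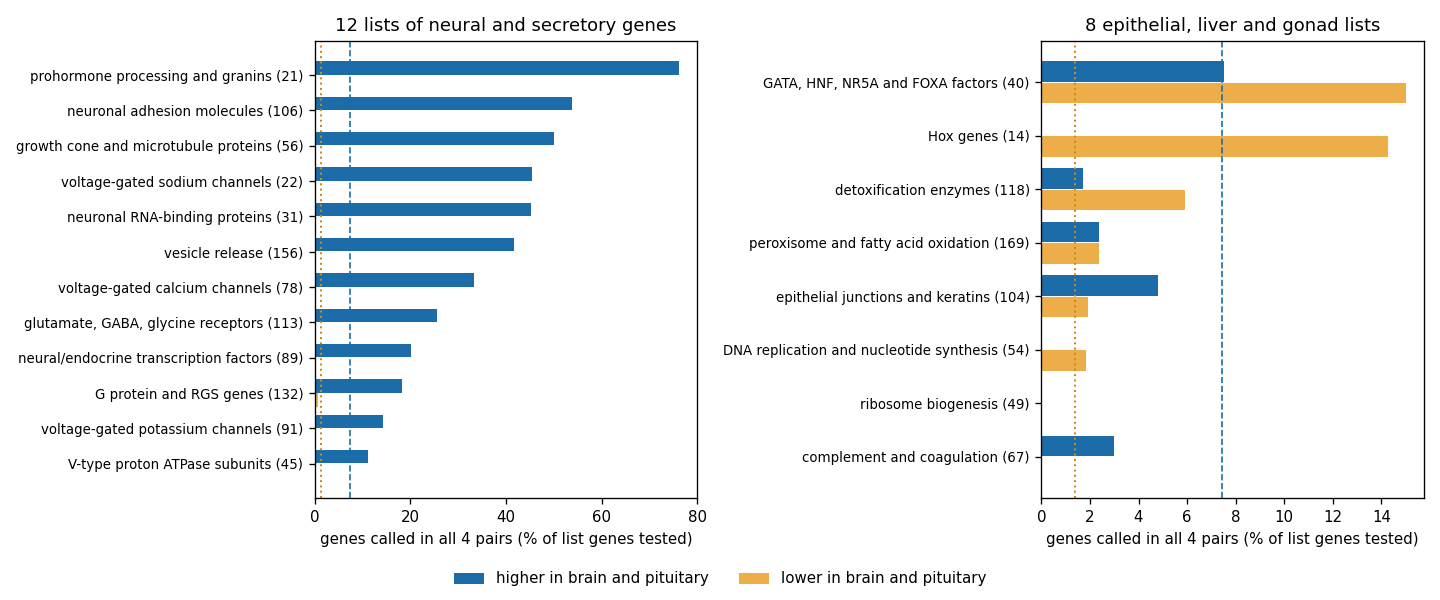
Percent of the tested genes of each list (number tested in brackets) that were higher (blue) or lower (yellow) in brain and pituitary in all 4 pairs of tissues; the dashed and dotted lines are the shares over all genes tested, 7.42% and 1.37%. All 12 lists on the left exceed the dashed line, while among the yellow bars of the 8 lists on the right the GATA list (which also holds NR0B and Wilms tumor genes), Hox and detoxification genes stand furthest above the dotted line and complement and ribosome biogenesis genes are at 0.

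Over the 12 lists together 305 of 940 tested genes were higher (32.4%, against 7.42% over all genes tested) and 1 was lower. These lists were drawn up with earlier results of the data known, and their counts are no independent evidence of the direction. Markers of neurons and of myelin were high in brain alone: neurofilaments had 0.475% of the brain sum in pituitary (19.5 CPM in the median library), 0.527% in ovary and 0.265% in liver, and myelin genes had 0.806% in pituitary, 0.564% in ovary and 0.485% in liver. Leukocyte genes ran from 250 to 1129 CPM in brain and pituitary against 143 to 569 CPM in ovary and liver, and collagen genes from 537 to 2523 CPM against 1074 to 1644 CPM, so these sums overlapped between the sides. The part of cell composition in the calls was not tested.

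By size alone, 11 of the 12 highest ranked genes with a characterized product had 3 or fewer counts in ovary or liver. The first, a D(1)-like dopamine receptor gene (LOC106603867, chromosome 4, 72561085–72565258), had 1.48, 0.871, 3.96 and 3.05 CPM in brain and 6.16, 4.21, 5.01 and 5.55 CPM in pituitary, and no count in any ovary or liver library. With the floor of 3 counts over the 4 libraries of a tissue it was at least 109.6-fold higher in brain than in ovary and at least 30.4-fold higher than in liver. Pituitary was at least 286-fold higher than ovary and at least 79.6-fold higher than liver. The bounds against liver are lower because the liver libraries were the shallowest after scaling, 3 counts being 0.066 CPM there and 0.0183 CPM in ovary.

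Dipeptidyl peptidase 10, a partner of potassium channels, ranked next: LOC106575263 averaged 10.9 ± 6.97 CPM in brain and 7.44 ± 0.938 CPM in pituitary, against 0.0124 ± 0.0144 CPM in ovary and 0 ± 0 CPM in liver. The ovary libraries held 2 counts in all, and the ratio of brain over ovary was 971 (95% interval 268 to 8022), by counting error alone. Fibroblast growth factor 8-like LOC106606274 had 2.63, 18.1, 1.03 and 1.8 CPM in brain and 5.64, 6.56, 5.07 and 7.79 CPM in pituitary, against 0.0231, 0, 0.0532 and 0 CPM in ovary and 0 in every liver library. Brain replicate 2 carried most of its brain signal. The other genes of this rank were scg2, kinase 32A, catenin delta-2, cell adhesion molecule 2, ceramide synthase 2, DAXX-like, OTU domain 7A and the tetraspan genes LOC106561734 and lhpl4.

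By level per exon length the 5 leading higher genes were pcsk2, a SPARC-like gene, 2 S100-B genes and fabp7, all of them at unequal levels in brain and pituitary. SPARC, a matrix glycoprotein, had 534, 417, 1124 and 893 CPM in brain and 2635, 1678, 1470.5 and 2412 CPM in pituitary, against 84.8, 99.8, 92.4 and 104 CPM in ovary and 106, 150.3, 159 and 95.7 CPM in liver, with a size of 2.54. S100-B and brain fatty acid-binding protein are known as glial proteins. The gene s100b had 1912, 1399, 907 and 690.0 CPM in brain and 48, 34.1, 55 and 22.8 CPM in pituitary, against 3.07, 3.52, 3.88 and 2.95 CPM in ovary and 7.72, 3.88, 5.53 and 2.09 CPM in liver. Its like-named gene LOC106574292 averaged 1231 ± 678 CPM in brain and 51.9 ± 15.7 CPM in pituitary, against 2 ± 0.399 CPM in ovary and 4.08 ± 1.73 CPM in liver. The gene fabp7 averaged 721 ± 254 CPM in brain and 35 ± 6.61 CPM in pituitary, against 1.48 ± 0.24 CPM in ovary and 2.82 ± 1.32 CPM in liver. Brain exceeded pituitary by 4.94 ± 0.42, 4.57 ± 0.44 and 4.36 ± 0.33 log2 units in these 3 genes (SE, adjusted p = 1.7e-07, 5.6e-07 and 4.6e-08, edgeR).

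Fish-egg lectin, fel (chromosome 7, 54210404–54213067), was among the 12 genes of largest size on the lower side, and had 0.177, 0.0415, 0.0295 and 0.0609 CPM in brain and 0.442, 0.0825, 0.134 and 0.184 CPM in pituitary, against 6.73, 47.2, 53.1 and 93.6 CPM in ovary and 68.5, 145, 102 and 125 CPM in liver. Ovary replicate 1 was the lowest of the 8 ovary and liver libraries and still far above every brain and pituitary library. Tudor domain protein 7B, of a family known from germ granules, was LOC106602533, with 0.237, 0.332, 0.207 and 0.0609 CPM in brain and 0.111, 0.247, 0.235 and 0.147 CPM in pituitary, against 71.2, 63.4, 68.4 and 54.4 CPM in ovary and 51, 66, 48.2 and 42.9 CPM in liver. Y-box-binding protein 2-A, which packs maternal mRNA, was LOC106608671, with 0.414, 0.152, 1.24 and 1.61 CPM in brain and 1.11, 0.907, 0.84 and 1.54 CPM in pituitary, against 141, 171, 127 and 151 CPM in ovary and 142, 150.2, 99.9 and 118 CPM in liver. The difference between ovary and liver missed the threshold in these 3 genes (adjusted p = 0.055, 0.2 and 0.63, edgeR), and the sizes were -7.86, -7.83 and -6.85.

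Of the 16 tested germ cell genes 4 were lower in brain and pituitary (25%, against 1.37% over all genes tested). The vasa gene ddx4 averaged 0.545 ± 0.3 CPM in brain and 0.538 ± 0.114 CPM in pituitary, against 181 ± 9.84 CPM in ovary and 3.93 ± 0.968 CPM in liver, so its liver level was far below its ovary level (log2 5.52 ovary over liver, adjusted p = 5.87e-11, edgeR). The second Y-box gene, ybx2a, averaged 1.38 ± 0.642 CPM in brain and 19 ± 2.9 CPM in pituitary, against 95.7 ± 19.5 CPM in ovary and 118 ± 13.8 CPM in liver. Summed over the list, germ cell genes had 53.6 to 90.5 CPM in brain and 47.5 to 49.6 CPM in pituitary, against 675 to 788 CPM in ovary and 307 to 388 CPM in liver. These sums include the 4 called genes. Of the 16 genes, brain against liver called 5 lower and 1 higher, and pituitary against liver 7 lower and 2 higher. Over all genes tested, brain against liver called 10.8% lower and 22.1% higher, and pituitary against liver 10.9% and 17.3%.

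Transcription factors of trunk organs had the highest share of lower genes of the 8 lists drawn up for ovary and liver: 6 of 40 tested GATA, HNF, NR5A, FOXA, NR0B and Wilms tumor genes were lower (15%, against 1.37% over all genes), 3 were higher, and the median contrast was −2.71. Wilms tumor protein, a factor of gonad and kidney development, was wt1 (chromosome 10, 100481813–100500790), with 0.0887, 0, 0.0295 and 0 CPM in brain and 0, 0.0412, 0.0672 and 0 CPM in pituitary, against 11, 14.5, 13.1 and 15.9 CPM in ovary and 3.03, 6.21, 3.72 and 4.43 CPM in liver. GATA-6-B, a factor of endoderm and gonad, came as a pair of genes. LOC106600428 on chromosome 3 had 0.266, 0, 0.207 and 0 CPM in brain and 0.221, 0.247, 0.235 and 0.184 CPM in pituitary, against 9.5, 11.4, 10.8 and 11.3 CPM in ovary and 130.0, 123, 101 and 117 CPM in liver. LOC106569316 on chromosome 14 averaged 0.133 ± 0.0922 CPM in brain and 0.107 ± 0.0877 CPM in pituitary, against 5.47 ± 0.969 CPM in ovary and 107 ± 11.8 CPM in liver. Ovary was below liver in both (log2 ovary over liver -3.45 ± 0.37 and -4.28 ± 0.30, SE, adjusted p = 3e-07 and 1.8e-09, edgeR). The other 3 lower genes were hnf4g (0.0224 ± 0.0284 CPM in brain and 0.0891 ± 0.0548 in pituitary, against 3.39 ± 0.656 in ovary and 12.1 ± 3.53 in liver), the GATA-5-like gene LOC106572125 and nr0b2, a partner of nuclear receptors in bile acid control. The gene gata4 was also lower, but its product name is spelled in a way the list does not hold, and it was named after its values were seen. It had 0.0591, 0.0692, 0.0591 and 0.0609 CPM in brain and none in pituitary, against 3.67, 3.4, 4.33 and 4.64 CPM in ovary and 85.5, 75.7, 69 and 69 CPM in liver.

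The 3 higher genes in that list (7.5%, near the 7.42% over all genes tested) were all GATA-2-like. GATA-2 is known as a factor of gonadotrope and thyrotrope cells of the pituitary and of some neurons. LOC106583208 averaged 2.22 ± 1.46 CPM in brain and 4.46 ± 1.96 CPM in pituitary, against 0.153 ± 0.0627 CPM in ovary and 0.176 ± 0.186 CPM in liver, and LOC106582928 and LOC106565550 had sizes of 3.44 and 2.72. The calls of all 3 depended on single libraries. LOC106582928 lost its call without ovary replicate 2 or any 1 of the liver libraries (size 3.28 to 3.43, largest adjusted p 0.0012 to 0.0015, edgeR). LOC106565550 lost it without liver replicate 1, 3 or 4 (size 2.62 to 2.76, largest adjusted p 0.0010 to 0.0013), and LOC106583208 without liver replicate 1 or 3 (size 3.41 to 3.63, largest adjusted p 0.0013 to 0.0016) and with the replicate number as a block (size 3.60, adjusted p 0.00101). Hepatocyte nuclear factor 4-beta, LOC106587347, averaged 0.0956 ± 0.107 CPM in brain and 0.0176 ± 0.0203 CPM in pituitary, against 0.103 ± 0.0273 CPM in ovary and 193 ± 9.61 CPM in liver, and did not meet the rule. Hox genes, which pattern the trunk, gave 2 lower genes of 14 tested (14.3%, median contrast −4.11), both of the B7 type and both at low level: hxb7a had no count in brain and averaged 0.0103 ± 0.0206 CPM in pituitary, against 0.361 ± 0.124 CPM in ovary and 0.895 ± 0.428 CPM in liver. The second, hoxb7ab, had 0 and 1 counts in brain and pituitary and lost its call in 15 of the 28 alternatives, among them the fits without any 1 pituitary library, ovary replicate 1, 2 or 4, or liver replicate 1, 3 or 4 (size −6.04 to −3.97).

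Other genes at the top of the lower side were rare in brain and pituitary. A TRIM39-like ubiquitin ligase gene, LOC106604181, had no count in brain or pituitary, against 1.55 ± 0.717 CPM in ovary and 1.63 ± 0.732 CPM in liver, which makes brain at least 90.8-fold lower than ovary and pituitary at least 56.9-fold lower. The TRIM21-like gene LOC106562458 ranked first at -8.74, at no count in brain and pituitary, but its liver values had an SD above their mean and the call was lost in 21 of 28 alternatives, with 14 of the 16 libraries left out singly among them (size −8.80 to −7.81). The rest of that rank were collectin-11, a connexin 32.2 gene, an SH2 domain protein 5 gene, a hemoglobin beta-2-like gene (LOC106609615) and 2 pseudogenes with no product name, LOC106586875 and LOC106574576. Of 20 tested globin genes 1 was lower (5%, against 1.37% over all genes tested). Their sums were 81.2 to 550 CPM in brain and 80.2 to 905 CPM in pituitary, against 11.9 to 21.9 CPM in ovary and 423 to 1602 CPM in liver. The call of LOC106574576 was lost without pituitary replicate 1, 3 or 4 or ovary replicate 1 (largest adjusted p 0.0010 to 0.0011, edgeR) and with the replicate number as a block (adjusted p 0.0016).

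By level per exon length the leading lower genes were liver genes that ovary carried at a much lower level. Among the leading genes were gapdh, beta-2-glycoprotein 1-like LOC106585643, complement C1q-like protein 2 LOC106568124 and plasminogen-like LOC106571394. Plasminogen-like averaged 1.68 ± 1.16 CPM in brain and 0.915 ± 0.196 CPM in pituitary, against 7.08 ± 1.3 CPM in ovary and 3733 ± 167 CPM in liver (size -2.10). Its call was lost in 7 of 28 alternatives, among them DESeq2's size factors and the fits without brain replicate 2 or 4, where its size lay between −1.94 and −1.76. The C1q-like gene lost its call in 6, among them the fit without brain replicate 2 (size −1.91). Beta-2-glycoprotein 1 averaged 0.756 ± 0.287 CPM in brain and 0.419 ± 0.175 CPM in pituitary, against 8.99 ± 1.63 CPM in ovary and 2049 ± 258 CPM in liver. Ovary thus held 0.190% and 0.439% of the liver level in these genes, and the summed liver plasma proteins stood in ovary at 0.0824% of their liver level. The part of this common low share in the ovary values was not tested. When the second tissue of the peripheral pair had to reach 10% of the first, 389 of the 509 lower genes remained, and 2576 of the 2750 higher genes under the like rule for brain and pituitary.

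The remaining lists of this kind gave few lower genes. Over all genes tested 1.37% were lower and 7.42% higher. Detoxification enzymes gave 7 lower and 2 higher of 118 (5.93% and 1.69%, median contrast −1.57), with cytochrome P450 2K1-like LOC106606453 at 0.321 ± 0.157 CPM in brain and 0.188 ± 0.156 CPM in pituitary, against 10.1 ± 2.33 CPM in ovary and 17.1 ± 8.12 CPM in liver. Peroxisome and fatty acid oxidation genes gave 4 lower and 4 higher of 169 (2.37% each, median −0.92). Epithelial junction and keratin genes gave 2 lower and 5 higher of 104 (1.92% and 4.81%, median 0.95). DNA replication and nucleotide synthesis genes gave 1 lower of 54 (1.85%, median −1.48). It was a maternal licensing factor gene, LOC106560381, at 0.666 ± 0.388 CPM in brain and 0.786 ± 0.173 CPM in pituitary, against 252 ± 16.7 CPM in ovary and 10.03 ± 1.36 CPM in liver.

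Complement and coagulation genes had the lowest median contrast of the 20 lists, −5.55, but none of 67 was lower by the rule and 2 were higher. Fibrinogen beta, LOC106578170, averaged 15.7 ± 11 CPM in brain and 7.87 ± 3.19 CPM in pituitary, against 18.1 ± 2.07 CPM in ovary and 29495 ± 1435 CPM in liver. Liver was the only high tissue. Of 49 ribosome biogenesis genes none was called, and the median contrast was −1.28. A negative fold in all 4 pairs was held by 30, a count given without a share over all genes tested. Brain against ovary called 29 lower and 1 higher, and pituitary against ovary 15 and 1. Brain against liver called 6 lower and pituitary against liver 3, with none higher. Over all genes tested, brain was called lower for 19.0% against ovary and 10.8% against liver, and pituitary for 18.9% and 10.9%. The shares called higher were, in the same order, 27.6%, 22.1%, 22.3% and 17.3%. Over these 8 lists 22 of 615 genes were lower (3.58%) and 16 were higher (2.60%), against 1.37% and 7.42% over all genes tested.

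Some genes of the liver and epithelial lists went the opposite way, in each list at a share under the 7.42% over all genes tested. Coagulation factor X, a clotting protease, was higher in brain and pituitary as a pair of genes: LOC106606543 had 243, 253, 169 and 170.4 CPM in brain and 136, 145, 122 and 136 CPM in pituitary, against 16.4, 19.8, 19.9 and 18.5 CPM in ovary and 9.01, 8.72, 8.43 and 6.85 CPM in liver. The gene fa10 averaged 32.6 ± 6.21 CPM in brain and 25 ± 3.81 CPM in pituitary, against 1.66 ± 0.286 CPM in ovary and 0.788 ± 0.167 CPM in liver. Liver was the lowest tissue in both. Claudin-19, a tight junction protein also known from myelinating cells, was a pair too: LOC106583106 had 414, 218, 238 and 51.8 CPM in brain and 80.7, 59, 109 and 72.6 CPM in pituitary, against 0.67, 0.642, 0.771 and 0.319 CPM in ovary and 2.11, 1.47, 1.9 and 0.418 CPM in liver, and cldn19, whose call was lost without liver replicate 2 or 4 (size 2.09 to 2.13, largest adjusted p 0.0013 to 0.0014, edgeR), averaged 154 ± 93.7 CPM in brain and 14.5 ± 3.12 CPM in pituitary, against 2.1 ± 0.402 CPM in ovary and 3.17 ± 0.741 CPM in liver. Keratin-8-like LOC106566189 had 3.67, 3.58, 24.2 and 20.0 CPM in brain and 14.1, 13.8, 21.4 and 12.6 CPM in pituitary, against 0.0693, 0.0238, 0.0797 and 0.0491 CPM in ovary and 0.0919, 0.0863, 0.272 and 0 CPM in liver, and claudin-4-like LOC106580434 and desmoplakin-like LOC106560365 had sizes of 5.37 and 2.34. In the fatty acid list the higher genes were acot7, acbd7, a gene for a PPAR gamma coactivator (LOC106611923) and an acyl-CoA desaturase gene, LOC106577394. That desaturase averaged 22.5 ± 2.77 CPM in brain and 17.3 ± 2.36 CPM in pituitary, against 1.94 ± 0.856 CPM in ovary and 0.109 ± 0.0388 CPM in liver, while a second desaturase gene of the same chromosome, LOC106577210, averaged 383 ± 185 CPM in brain and 45.7 ± 5.08 CPM in pituitary, against 113 ± 11.9 CPM in ovary and 2006 ± 392 CPM in liver.

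Enzymes of glycolysis and gluconeogenesis appeared on both sides. This group was chosen after its values were seen. Of 74 tested genes 11 were higher (14.9%) and 6 lower (8.11%), against 7.42% and 1.37% over all genes tested. Aldolase splits fructose bisphosphate, and its A and C forms are known from muscle and brain. Aldolase A, aldoa (chromosome 3, 51093248–51105749), had 855, 742, 536 and 523 CPM in brain and 358, 382, 383 and 351 CPM in pituitary, against 16, 20.7, 21.5 and 22.2 CPM in ovary and 15.7, 14.2, 15.7 and 11.1 CPM in liver. Aldolase C, aldoc, averaged 198 ± 114 CPM in brain and 25.9 ± 5.67 CPM in pituitary, against 0.446 ± 0.183 CPM in ovary and 1.55 ± 0.52 CPM in liver. The smallest log2 fold changes were 4.20 for aldoa and 4.06 for aldoc.

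Hexokinase 1, which starts glycolysis, was higher as 2 genes: LOC106587516 averaged 49.5 ± 10.6 CPM in brain and 20.0 ± 1.76 CPM in pituitary, against 0.548 ± 0.243 CPM in ovary and 0.393 ± 0.155 CPM in liver, and LOC106564733 had a size of 4.80. The phosphofructokinase gene k6pp averaged 241 ± 19.6 CPM in brain and 39.3 ± 3.69 CPM in pituitary, against 0.575 ± 0.11 CPM in ovary and 1.93 ± 0.551 CPM in liver, and an alpha-enolase gene, LOC106566383, had a size of 2.80. On the lower side stood 3 glyceraldehyde-3-phosphate dehydrogenase genes, a name often used as a reference transcript. Their values do not stand for any gene of that name outside the calls, for which none is given here. The gene gapdh had 4.11, 0.346, 2.45 and 1.65 CPM in brain and 1.25, 1.28, 3.46 and 1.58 CPM in pituitary, against 18.3, 14.6, 24.8 and 39.3 CPM in ovary and 3817, 4416, 5128 and 4208 CPM in liver. LOC106575942 averaged 0.749 ± 0.558 CPM in brain and 1.19 ± 0.514 CPM in pituitary, against 75.8 ± 19 CPM in ovary and 1040.5 ± 88.4 CPM in liver. Fructose-1,6-bisphosphatase 1, of gluconeogenesis, was lower as 2 genes with sizes of -6.11 and -3.08 for LOC106561989 and LOC106568356. On the higher side stood also a glucose-6-phosphatase-like gene, LOC106601296, at 0.948 ± 0.454 CPM in brain and 5.83 ± 0.471 CPM in pituitary, against 0.074 ± 0.0237 CPM in ovary and 0.133 ± 0.0925 CPM in liver.

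**Figure D3:**
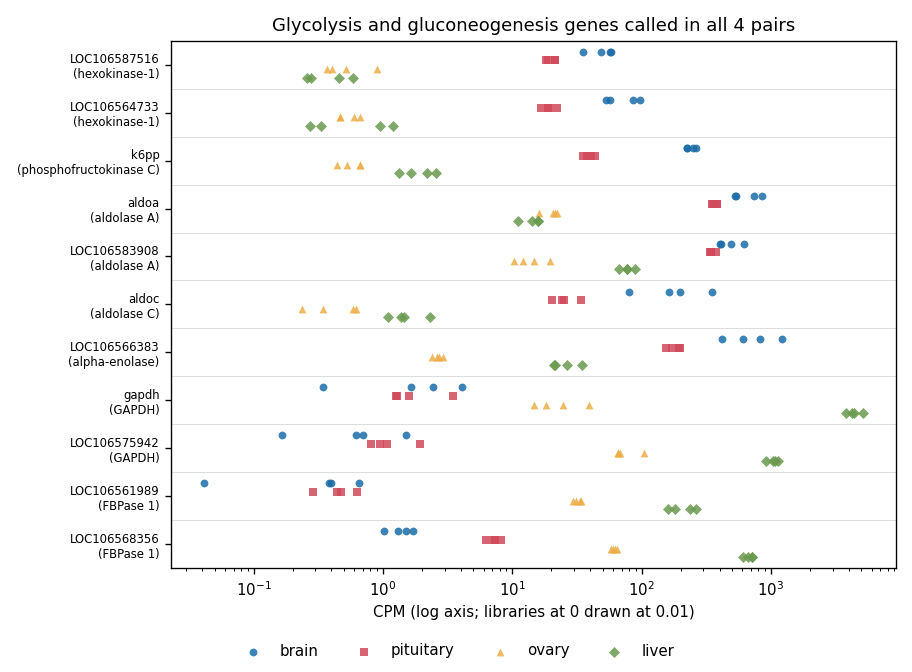
CPM per library on a log axis for 11 of the 17 glycolysis and gluconeogenesis genes called in all 4 pairs of tissues, 4 libraries per tissue, none of them at 0. The upper 7 rows (2 hexokinase 1 genes, phosphofructokinase, 2 aldolase A genes, aldolase C, enolase) have brain and pituitary on the right, and the lower 4 rows (2 GAPDH genes, 2 fructose bisphosphatases) have liver furthest right and ovary next.

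Lipid storage genes were a further group chosen after its values were seen. Of 26 tested genes of lipid droplets and triglyceride synthesis 6 were lower (23.1%, against 1.37% over all) and none was higher, with a median contrast of −2.73. Perilipin 2, a coat protein of lipid droplets, was plin2, with 2.96, 15.5, 7.71 and 7.22 CPM in brain and 1.81, 1.94, 1.11 and 1.51 CPM in pituitary, against 193, 218, 201 and 201 CPM in ovary and 816, 521, 799.6 and 831 CPM in liver. The diacylglycerol acyltransferase 2 gene LOC106567948, for the last step of triglyceride synthesis, averaged 1.94 ± 0.678 CPM in brain and 0.75 ± 0.353 CPM in pituitary, against 59.7 ± 1.97 CPM in ovary and 174 ± 53.4 CPM in liver. The others were cideb (size -4.94), mog2a (-3.76), a G0/G1 switch protein 2 gene, LOC106565122 (-3.65), and the diacylglycerol acyltransferase 1 gene LOC106570407 (-3.28).

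Nucleotide synthesis genes gave a smaller group, also chosen after its values were seen: 4 of 35 tested genes were lower (11.4%, against 1.37% over all, median contrast −0.59) and none was higher. A further lower gene, ppat, for the first committed step of purine synthesis, has a product name the group's pattern did not hold. It averaged 11.9 ± 2.91 CPM in brain and 14.9 ± 2.34 CPM in pituitary, against 83.9 ± 2.49 CPM in ovary and 92.6 ± 17.5 CPM in liver. The 4 were the 2 PURH genes of the last steps of purine synthesis, pur9 with a size of -2.83 and LOC106575709 with -3.27, the adenylosuccinate synthetase gene pura1 (-4.46) and the CAD gene of pyrimidine synthesis, LOC106571444 (-2.62). The broader list of DNA replication and nucleotide synthesis genes, given above, had 1 lower gene of 54 (1.85%).

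Inside the higher side, brain and pituitary were mostly within the threshold of each other. Of the 2750 higher genes 402 (14.6%) were at least 4-fold higher in brain than in pituitary at the same adjusted p and 139 (5.05%) at least 4-fold higher in pituitary, while over all tested genes these shares were 10.7% and 4.91%. For 174 genes the lower of the 2 means was under 10% of the higher. Inside the lower genes, ovary exceeded liver in 50 of 509 (9.82%) and liver exceeded ovary in 128 (25.1%), against 22.3% and 18.5% over all tested genes, and for 120 genes the lower mean was under 10% of the higher.

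**Figure D4:**
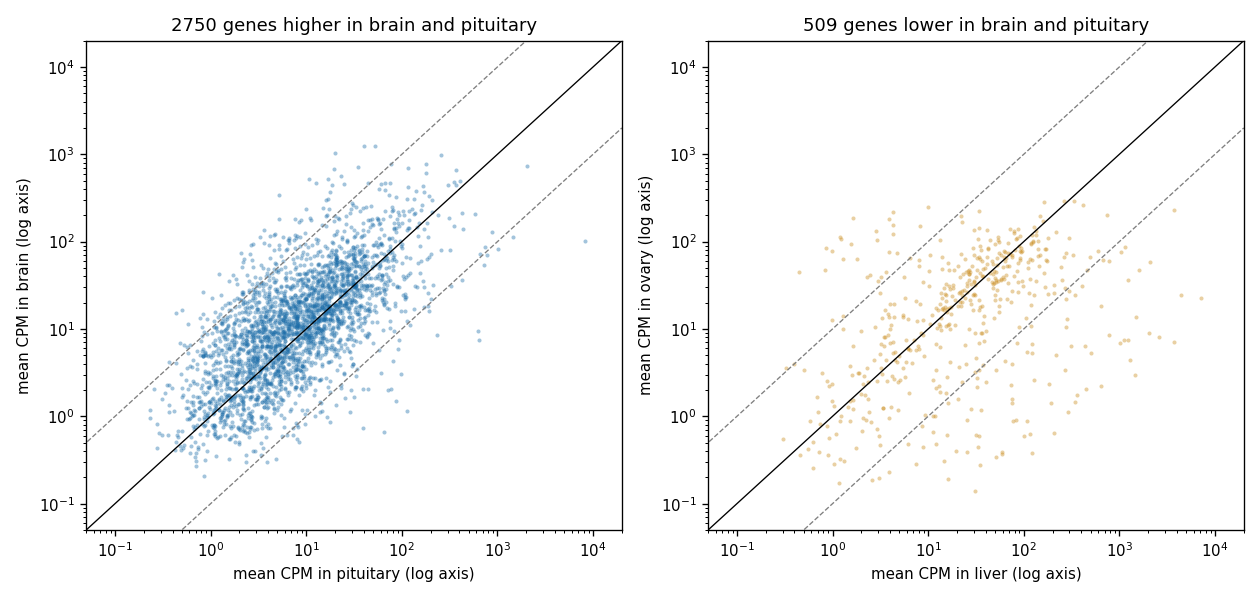
Mean CPM of each gene in the 2 tissues of the side where it was higher, on log axes: brain against pituitary for the 2750 higher genes (left) and ovary against liver for the 509 lower genes (right). The solid line marks equal levels and the dashed lines 10-fold differences; 174 genes on the left and 120 on the right lie outside the dashed lines.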

How the data were processed

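Read counts per gene were deposited as 1 table of 16 libraries. Per the study's methods the authors filtered reads by quality, aligned them with TopHat2 to the ICSASG_v2 assembly and counted unique exon reads with HTSeq; the strand setting of the counting is not given in the sources used here. The counts were fitted as deposited in 1 edgeR 4.0.16 quasi-likelihood model (R 4.3.3, TMM factors, filterByExpr, Benjamini-Hochberg over 37043 genes). Calls needed both limits (0.001 for the adjusted p, 2 for the log2 fold change) in all 4 pairs of tissues. CPM use TMM-scaled totals, and FPKM divide them by summed exon length. Genes that were not tested held 0.0411% to 0.423% of the counts. Gene lists were matched by product name. The members and lists were chosen with earlier results of these data known.

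Genes named were, in each direction, the 12 of largest size whose 8 libraries did not overlap the other 8, the 5 of highest FPKM (uncharacterized products left out), up to 3 members and the most abundant other tested gene of each list, and members that went against their list. Other named genes were chosen after their values were seen, and 1 gene that the rule names is not reported here. Per the study's methods the tissues came from 4 fish, but neither labels nor methods tie a replicate number to a fish, and p-values measure the spread between these libraries. Intervals and floors (95%, 3 counts) cover counting error only. DESeq2 1.42.0, other normalizations, filters and thresholds, a replicate block and fits without single libraries were tried as alternatives.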

Additional observations from a re-analysis of the deposited data

Results flagged for a closer look

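The summed neurofilament genes in brain had 1 library far from the other 3: the lowest held 530.3 CPM, against a median of 4117 CPM and a highest of 4501 CPM over the group. It was 1 of 52 groups of 4 libraries looked at in this way, where chance gives about 1 in 20. None of the 14 neurofilament genes tested met the rule for higher genes.

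Tests of 1 tissue against the other inside each side also drew attention. Of the genes higher in brain and pituitary, 402 stood at least 4-fold higher in brain than in pituitary (14.6%, against 10.7% over all genes tested). At least 4-fold higher in pituitary were 139 (5.05%, against 4.91%). Of the genes lower in brain and pituitary, 50 stood at least 4-fold higher in ovary than in liver (9.82%, against 22.3%). At least 4-fold higher in liver were 128 (25.1%, against 18.5%).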

How the results depend on the processing

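The counts of 2750 higher and 509 lower genes kept within 1.5 times of these values under DESeq2's size factors, no filter, a CPM filter, the DESeq2 Wald test (3193 and 531) and each pair of tissues fitted alone (2408 and 366). Plain library totals gave 3353 higher and 323 lower genes, and moved the median contrast of all genes to 0.51, against 0.09. An adjusted p of at most 0.05 with a log2 fold change of at least 1 gave 5050 and 1739 genes, 456 higher genes in the 12 lists, 21050 calls in the contrast of means (11449 before) and 1360 higher genes unequal between brain and pituitary (541 before). A single contrast of the means gave 7848 and 3601 genes, and 643 of the 12 lists' genes (305 before). No gene called in the report was called in the opposite direction under any of these settings. Leaving out each library in turn gave 2435 to 2885 higher and 481 to 525 lower genes. Brain libraries 3 and 4, or 1 and 2, left out together, and a minimum of 10% between the tissues of a side, were chosen after seeing the data. Of 126 called genes that the text or its rule names, 47 lost the call in at least 1 of 28 alternatives and 0 turned direction. Depth limits the genes near 0: 3 counts over 4 libraries are 0.0174 CPM in brain, 0.0277 in pituitary, 0.0183 in ovary and 0.066 in liver.

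With a replicate block the counts were 2599 and 506, and the pairing was checked on deviations from the tissue means. Same-numbered libraries of different tissues had correlations from −0.002 to 0.158 (median 0.091, 10 of 24 over 0.1). The 72 differently numbered pairs had correlations from −0.092 to 0.056 (median −0.030). All 16 of 16 libraries correlated best with their own number, so the numbers may well mark the fish. No source states this, and the main fit held no block, so its p-values leave out such a pairing. The block ended the calls of 8 of the 126 genes: LOC106561696, LOC106571450, LOC106583208, LOC106586798 and LOC106588006 on the higher side, and LOC106562458, LOC106574576 and hoxb7ab on the lower.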
